A study of Mus musculus with 4 samples.

Results

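The genes described here encode cathepsins and legumain, proteases that work in the acid interior of lysosomes. They were taken by name, as the rows Ctsa, Ctsb, Ctsc, Ctsd, Ctsh, Ctsl, Ctss, Ctsz and Lgmn of 4 single-cell count tables, and all 9 were found among the 16308 genes measured in every library. CD45+ leukocytes had been sorted from the muscularis externa, the muscle layer of the small intestine, after intestinal manipulation, a surgical handling of the bowel that inflames this layer. One library each was made from WT C57BL/6J mice and from CCR2-/- mice (Ccr2-/-; B6.129S4-Ccr2tm1Ifc/J), at 24 h and again at 72 h. All mice were female and 12 weeks old, and all had undergone the procedure, so no unmanipulated animal entered the comparisons. The CCR2-/- mice carry the disrupted receptor gene in every cell of the body, and each library pooled cells of 3 to 4 mice. With 1 library per group, no test between groups could be made. The intervals below are exact 95% intervals that cover counting error alone, not the spread between mice.

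Cathepsins reach the lysosome as inactive precursors and are activated there by acid and by one another. Cathepsins B, L and D degrade proteins taken up by phagocytosis, while cathepsin S and legumain also trim antigens and the invariant chain that guards MHC class II molecules. In tissue macrophages this machinery clears dead cells and debris, and in neutrophils cathepsin C activates the serine proteases stored in granules.

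The 4 tables held 5811 cells and between 9736725 and 21206308 UMIs (unique molecular identifiers, each standing for 1 captured transcript) per library. Cells were assigned to classes by the mean scaled level of marker genes, none of them a member. The names below therefore mean monocyte/macrophage-like (mono/Mφ), neutrophil-like, dendritic-like and so on. From the WT mice 1248 mono/Mφ cells were found at 24 h and 879 at 72 h, against 201 and 127 from the CCR2-/- mice. Neutrophil-like cells numbered 310 and 185 in WT and 1331 and 563 in CCR2-/-, dendritic-like cells between 45 and 109 per library. All 18 mono/Mφ markers reached 20 CPM (UMIs per 1000000 of the pooled cells) in the mono/Mφ cells of every library, and 204 cells received no class. In mono/Mφ cells Ccr2 itself stood at 752 and 1071 CPM in WT and at 93.2 and 84.4 CPM in CCR2-/- mice. Pairs of libraries shared at most 1 cell barcode.

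In the GRCm38 annotation of GENCODE M21 the 9 genes are protein coding and lie on 7 chromosomes, so only 2 pairs share one. Ctsa spans chr2:164832873-164841032 on the plus strand and Ctsz chr2:174427493-174439039 on the minus strand. Ctsc lies at chr7:88278085-88310888 (plus) and Ctsd at chr7:142375911-142388038 (minus). The others are Ctsb (chr14:63122462-63145923, plus), Ctsh (chr9:90054152-90076089, plus), Ctsl (chr13:64359337-64370890, minus), Ctss (chr3:95526786-95556403, plus) and Lgmn (chr12:102394084-102439813, minus). The kit reads the 3' end of each transcript, so the counts come from the last exons of these genes and do not grow with gene length.

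RefSeq upstream sequences (GRCm38.p6, the 250 bases before each start) were at hand for 7 members. They were searched on both strands for letters of the CLEAR element, the site through which TFEB and TFE3 raise lysosomal genes, and of the interferon-stimulated element. The E-box core CACGTG was in the windows of Ctsa, Ctsd, Ctsl and Lgmn and in 6.02% of all 32817 windows, while the full 10-base form, in which this core stands between GT and AC, was in none of the members and in 0.241% of all. The interferon-stimulated core, GAAA repeated after any 2 bases, was in the Ctss window alone among the members and in 2.97% of all windows, and the related form that begins with GGAA was in no member and in 2.3% of all. Stretches of Ctsd and Ctss are shown as examples of these matches, chosen after their levels were known. The correlation of these members was 0.10 over the pools described at the end. Ctsa, Ctsl and Lgmn, whose windows also held the E-box core, gave 0.86, 0.69 and 0.90 with Ctss. A link between these letters and the levels was not tested. Each stretch is written 5' to 3' on the gene's strand with the matched letters in capitals.
Ctsd, chr7:142387906-142387935, minus strand, match starting 98 bases before the start: gcccgcgtctCACGTGacccgttgagggcc
Ctss, chr3:95526726-95526785, plus strand, match starting 21 bases before the start: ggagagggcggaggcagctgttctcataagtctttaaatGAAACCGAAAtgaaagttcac
The starts meant here are those of RefSeq, and they can lie inside the GENCODE spans given above. The Ctsd stretch lies inside the GENCODE span of its gene and overlaps an annotated UTR. The matched stretches of Ctsa, Ctsl and Lgmn also lie inside the spans of their genes. Another Ctsd match, 245 bases before the RefSeq start (chr7:142388048-142388077), lies outside the GENCODE span. A match of letters is a description of the window and was not tied to any binding measurement.

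Mono/Mφ cells held most of the protease transcripts. In WT mice they carried 96.0% of all member UMIs at 24 h and 92.6% at 72 h, beside 89.3% and 76.9% of the UMIs of all genes. In the CCR2-/- libraries, where these cells were fewer, the shares were 60.7% and 56.1%, beside 33.9% and 21.1% of the UMIs of all genes. Counted over whole libraries the 9 genes made up 1.43% and 1.32% of all UMIs in WT and 0.892% and 0.526% in CCR2-/- mice. Within the mono/Mφ cells alone the difference was small, with 15334 and 15863 CPM for the summed members in WT against 15963 and 14017 CPM in CCR2-/- mice. Of 9 members, 7 were highest in mono/Mφ cells at 24 h in both genotypes, and all 9 at 72 h, when mono/Mφ, neutrophil-like and dendritic-like cells are compared. The exceptions at 24 h were Ctsd, highest in neutrophil-like cells, and Ctsh, highest in dendritic-like cells.

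**Figure D1:**
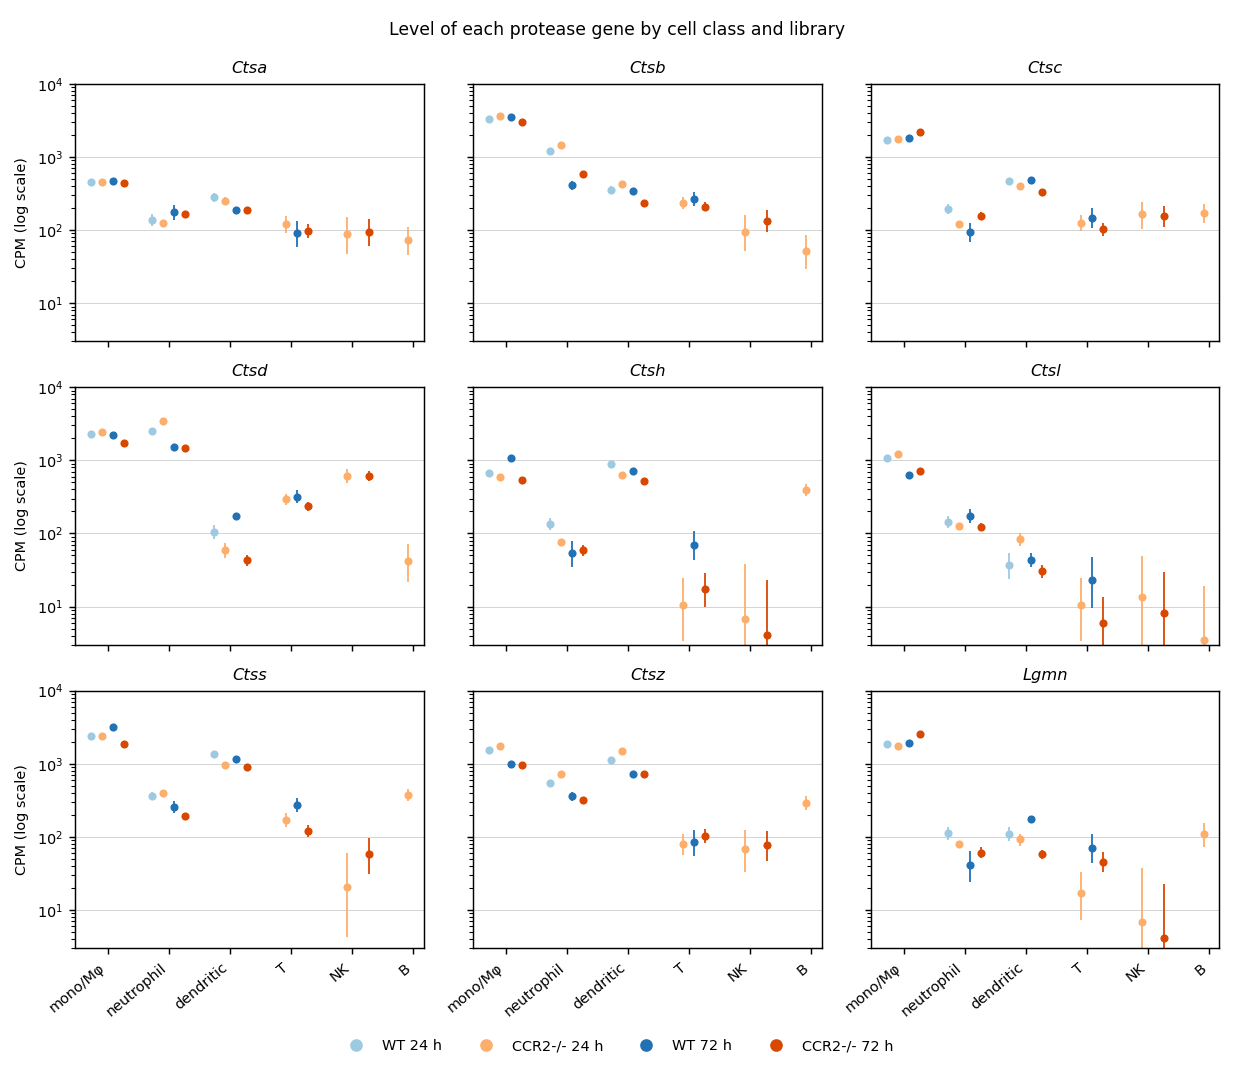
Level of each gene (CPM, log axis) in 6 cell classes, 1 point per library with its exact 95% counting interval; a class with under 20 cells in a library has no point. Lgmn, Ctsl and Ctsc are set apart in mono/Mφ cells. Ctsb is highest there but also high in neutrophil-like cells at 24 h, and Ctsd is as high in neutrophil-like as in mono/Mφ cells. Ctsh and Ctss are shared with dendritic-like and B-like cells.

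The most abundant member in mono/Mφ cells was Ctsb, a cysteine protease that cuts inside proteins and also trims their ends, in all 4 libraries. Its levels were 3265 CPM in WT and 3590 CPM in CCR2-/- cells at 24 h, and 3478 and 2969 CPM at 72 h. The next 4 places belonged to Ctss, Ctsd, Lgmn and Ctsc in every library, and the least abundant was Ctsa, the carboxypeptidase that also shields lysosomal sialidase and beta-galactosidase, at 445 to 471 CPM. In WT libraries no neighbours in the order of levels had overlapping intervals. The same held in CCR2-/- cells at 72 h. At 24 h in CCR2-/- cells the intervals of Ctsd and Ctss overlapped, as did those of Ctsc and Lgmn and of Lgmn and Ctsz.

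Legumain, an asparaginyl endopeptidase, gave the largest differences in level between mono/Mφ and neutrophil-like cells. Lgmn stood at 1863, 1746, 1938 and 2575 CPM in mono/Mφ cells of WT 24 h, CCR2-/- 24 h, WT 72 h and CCR2-/- 72 h. That was 16.5-fold to 47.7-fold its level in the neutrophil-like cells of the same libraries. Ctsd, the aspartic protease of the group, gave the smallest such differences. It was 1.09-fold and 1.39-fold higher in the neutrophil-like cells at 24 h, in WT and in CCR2-/- mice, and 1.45-fold and 1.17-fold higher in mono/Mφ cells at 72 h. Against dendritic-like cells the order changed. Ctsh and Ctsz, which remove residues from the ends of proteins, were at most 1.49-fold apart between mono/Mφ and dendritic-like cells, while Ctsb was 8.38-fold to 12.5-fold higher. Ctsd was 12.9-fold to 41.7-fold higher in mono/Mφ cells, Ctsl 14.7-fold to 29.8-fold and Lgmn 11.2-fold to 44.9-fold.

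By the share of cells with at least 1 UMI, after every cell was thinned to 1000 UMIs, 7 members at 24 h and 9 at 72 h were highest in mono/Mφ cells in WT, and 8 at either time in CCR2-/- mice. The exceptions were Ctsd, highest in neutrophil-like cells at 24 h in both genotypes, and Ctsh, highest in dendritic-like cells in WT at 24 h and in CCR2-/- mice at 72 h. Ctss was found in 84.7% to 93.7% of mono/Mφ cells and Ctsb in 83.9% to 88.6%. In T-like cells, which should hold little of either, the shares were 12.8% to 21.1% for Ctss and 12.8% to 26.1% for Ctsb. Lgmn was found in 67.8% to 85.4% of mono/Mφ cells, in 3.37% to 6.78% of neutrophil-like and in 1.75% to 4.35% of T-like cells. Ctsc, at 6.74% to 10.6% of neutrophil-like cells, did not exceed its 6.52% to 16.0% in T-like cells, so it was not set apart from background there. T-like cells are no sure background for Ctsc, which came next after Ctsd among the members in the NK-like pools. Without thinning, the median cell held 14175 to 16266 UMIs in the mono/Mφ class, 2084 to 3455 in the neutrophil class and 5538 to 7553.5 in the T-like class. All 1248 WT mono/Mφ cells at 24 h then had a Ctsb UMI.

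The first comparison asked whether mono/Mφ cells of CCR2-/- mice carry the proteases at other levels than those of WT mice. At 24 h they did not by the rule used here, a difference of at least 1.5-fold among genes with 20 CPM or more in either pool and 20 UMIs in both together. None of the 9 members was called, against 11.8% of the 5858 genes compared, 5.94% higher and 5.84% lower. The largest difference was that of Ctsh, at 677 CPM in WT and 588 CPM in CCR2-/- cells, a log2 ratio of -0.20 (interval -0.27 to -0.14). Ctsl, a cysteine endopeptidase, stood at 1093 and 1241 CPM, a log2 ratio of 0.18. Ctss was nearly equal, at 2404 and 2407 CPM. The median log2 ratio was 0.02 over the members and -0.08 over all genes compared.

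At 72 h Ctss and Ctsh were lower in CCR2-/- mono/Mφ cells, and they were the only members called, 2 of 9. Of the 6406 genes compared, 24.4% were called, 16.3% higher and 8.2% lower. Ctss stood at 3202 CPM in WT and 1882 CPM in CCR2-/- cells, a log2 ratio of -0.77 (-0.82 to -0.72). Ctsh stood at 1065 and 532 CPM, a log2 ratio of -1.003 (-1.09 to -0.91). Ctsh was found in 62.9% of thinned WT cells and in 26.0% of thinned CCR2-/- cells, and in at most 2.13% of T-like cells. The other 7 differed by less than 1.5-fold in both directions. Lgmn was at 1938 CPM in WT and 2575 CPM in CCR2-/- cells (log2 ratio 0.41, 0.37 to 0.45) and Ctsc, the dipeptidyl peptidase, at 1837 and 2191 CPM (0.25). Ctsd was at 2228 and 1753 CPM (-0.35), and Ctsb, Ctsl, Ctsz and Ctsa lay within 0.23 of equality. The median was -0.08 over the members and 0.12 over all genes compared.

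Dividing cells moved with this result. Of the CCR2-/- mono/Mφ cells at 72 h, 52 of 127 had UMIs of at least 4 of 8 genes of dividing cells, against 47 of 879 in WT. In the dividing cells Ctss stood at 1488 CPM in CCR2-/- and 2167 CPM in WT mice, and Lgmn at 3028 and 1411 CPM. In the cells that were not dividing the values were 2361 and 3300 CPM for Ctss, 632 and 1082 CPM for Ctsh, and 2023 and 1988 CPM for Lgmn. Without the dividing cells the log2 ratio of Ctsh was thus -0.77 and that of Ctss -0.48, under the 1.5-fold line, and that of Lgmn was 0.03. The median share of mitochondrial UMIs was 5.91% in the CCR2-/- cells and 4.28% in WT, and the summed level of 9 immediate early and heat shock genes was 2062 and 5278 CPM. With cells of at most 5% mitochondrial UMIs, 40 CCR2-/- and 583 WT cells, the ratios were -1.08 for Ctsh, -0.67 for Ctss and -0.11 for Lgmn. The make-up of the class differed as well. By the gates described below, the Cd206 subset held 253 of the 879 WT and 14 of the 127 CCR2-/- cells. The part of dividing cells, mitochondrial share, stress genes and subset make-up in the differences was not tested beyond these values.

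**Figure D2:**
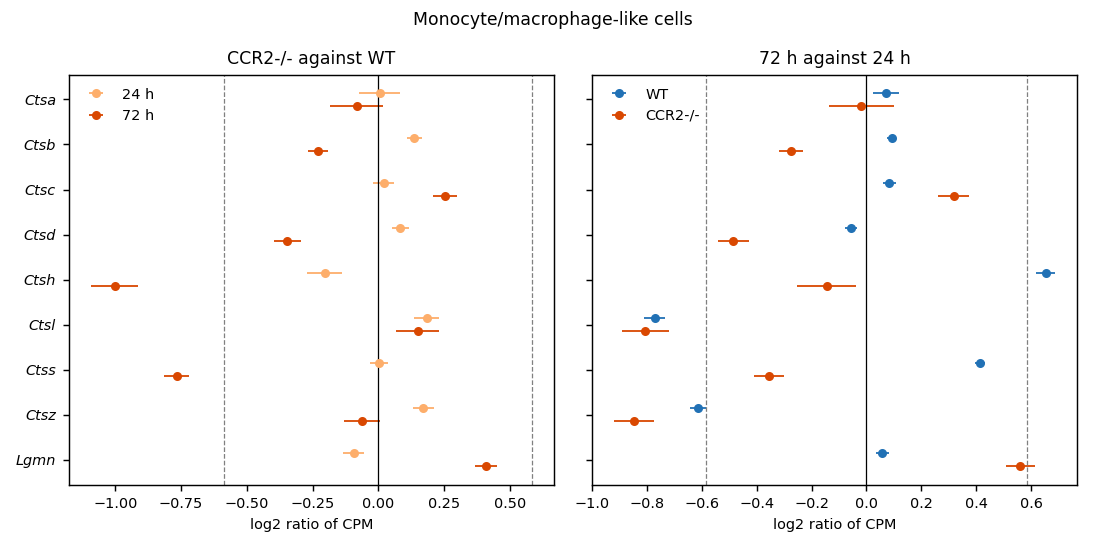
Log2 ratio of CPM in mono/Mφ cells, for CCR2-/- against WT at 24 and 72 h (left) and for 72 h against 24 h in WT and CCR2-/- mice (right), with exact 95% counting intervals; dashed lines mark 1.5-fold. At 72 h Ctsh and Ctss lie left of the line at -1.003 and -0.77, and over time Ctsl and Ctsz lie left of it in both genotypes.

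Time was the second axis of the study. In the pooled mono/Mφ cells of both genotypes Ctsl and Ctsz were lower at 72 h than at 24 h. The make-up of these pools also changed by the subset gates described below. The Fabp5 subset held 303 WT and 65 CCR2-/- cells at 24 h, and 3 and 4 at 72 h. The part of this change in the ratios was not tested. Ctsl went from 1093 to 640 CPM in WT (log2 ratio -0.77, -0.81 to -0.74) and from 1241 to 710 CPM in CCR2-/- cells (-0.81, -0.89 to -0.72). Ctsz, a carboxypeptidase, went from 1535 to 1004 CPM in WT (-0.61) and from 1729 to 962 CPM in CCR2-/- cells (-0.85). Ctsh was also called in WT, where it rose from 677 to 1065 CPM (0.65, 0.62 to 0.69). Ctsh in CCR2-/- cells was 588 and 532 CPM, a log2 ratio of -0.15. So 3 of 9 members were called in WT, where 33.6% of genes were (16.1% higher, 17.4% lower), and 2 of 9 in CCR2-/- cells, where 35.6% were (23.3% higher, 12.3% lower), shares close to the background. With totals scaled by the median of ratios Ctsz in WT was at -0.57, just under 1.5-fold. With the mean CPM over cells Ctsl in CCR2-/- cells was at -0.36, also under it. Ctss was at 2404 and 3202 CPM in WT (0.41) and at 2407 and 1882 CPM in CCR2-/- cells (-0.35), neither of them called. Lgmn in CCR2-/- cells, at 1746 and 2575 CPM, reached a log2 ratio of 0.56, again just short of 1.5-fold, while in WT it was 0.06.

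Genes that work beside these proteases were read from lists. Of the partners in antigen processing, 6 of the 9 listed could be compared over time in WT mono/Mφ cells. All 6 rose, where 16.1% of all genes were called higher, with a median log2 ratio of 1.49 against -0.04 over all genes. Cd74, the invariant chain that cathepsin S cleaves, went from 4451 to 14723 CPM, H2-DMb2, a chain of the peptide editor H2-DM, from 4.65 to 27.0 CPM, and H2-DMb1, its other beta chain, from 207 to 608 CPM. At 72 h 5 of the 6 were lower in CCR2-/- cells, where 8.2% of all genes were (median -0.998 against 0.12 over all genes), with Cd74 at 5194 CPM and H2-DMb1 at 303 CPM. At 24 h 2 of 5 were higher in CCR2-/- cells, where 5.94% of all genes were, Cd74 at 9572 CPM and H2-DMb1 at 509 CPM. In CCR2-/- cells over time 2 of 5, Cd74 and H2-DMb1, fell and Tlr7, a nucleic acid sensor that needs cathepsin cleavage, rose from 30.2 to 50.7 CPM. In that comparison 12.3% of all genes were lower and 23.3% higher.

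Among 34 other lysosomal hydrolases, 10 rose and 2 fell in WT over time of 32 compared, with a median of 0.33. In that comparison 16.1% of all genes were higher and 17.4% lower. Pla2g15, a lysosomal phospholipase, went from 51.9 to 134 CPM, Man2b1, an alpha-mannosidase, from 213 to 468 CPM, and Acp5, the tartrate-resistant phosphatase, fell from 183 to 84.0 CPM. At 72 h 7 of 33 were lower and none higher in CCR2-/- cells (median -0.25), where 8.2% of all genes were lower and 16.3% higher. Among the lower ones were Man2b1, at 237 CPM, and Npc2, a cholesterol carrier, at 936 against 1462 CPM. In CCR2-/- cells over time 5 rose and 3 fell of 33, shares below the 23.3% of all genes higher and 12.3% lower. Arsb, a sulfatase, went from 3.96 to 20.5 CPM, Manba, a beta-mannosidase, from 18.6 to 60.5 CPM, and Gla, an alpha-galactosidase, from 61.9 to 19.99 CPM. The lysosomal membrane and proton pump list was read the same way. In WT 1 of 20 rose over time, Laptm5, from 744 to 1413 CPM, and 4 fell, among them the pump subunit Atp6v1c1, from 135 to 70.8 CPM. Of all genes 16.1% were higher and 17.4% lower there. In CCR2-/- cells 6 of 20 fell and none rose, where 12.3% of all genes were lower and 23.3% higher, Cd68 going from 819 to 335 CPM. Between genotypes 1 of 20 was called at 24 h, Cd63, higher at 744 against 440 CPM, and 0 of 20 at 72 h. The shares of all genes called were 11.8% and 24.4%.

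Natural protease inhibitors of the cystatin and serpin families changed in opposite directions. Cstb, the cytosolic cystatin B, fell from 1649 to 365 CPM in WT and from 1786 to 492 CPM in CCR2-/- mono/Mφ cells. Cst3, the secreted cystatin C, rose in WT from 1392 to 2836 CPM and was lower in CCR2-/- cells at 72 h, at 1588 CPM (log2 ratio -0.84). Serpinb6a, a serpin, rose from 13.04 to 100.2 CPM in WT and from 39.0 to 181 CPM in CCR2-/- cells, and was higher in CCR2-/- cells at both times. These were the only 3 of the 15 listed inhibitors high enough to compare.

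Sorting receptors and their adaptors gave 1 lower call at 24 h and 2 higher calls at 72 h between genotypes, of 9 compared, where 11.8% and 24.4% of all genes were called. Over time 1 of 9 was higher and 2 were lower in each genotype, a share close to the 33.6% and 35.6% of all genes called in WT and CCR2-/- cells. Igf2r, the large mannose 6-phosphate receptor that brings hydrolases to lysosomes, fell over time from 41.0 to 10.5 CPM in WT and from 45.5 to 23.9 CPM in CCR2-/- cells. M6pr, the small one, was higher in CCR2-/- cells at 72 h, at 203 against 129 CPM. Of the 4 factors of lysosomal gene control, Tfeb rose in WT from 22.0 to 34.6 CPM and Tfec fell from 74.2 to 32.3 CPM, where 33.6% of all genes were called. Between genotypes Tfec was higher in CCR2-/- cells at 72 h, at 51.7 against 32.3 CPM (0.68), where 24.4% of all genes were called. Tfe3 and Mitf were not called in any comparison of mono/Mφ cells. The remaining cathepsins were sparse. Of 6 listed, at most 2 could be compared. Ctsf, at 24.9 CPM in CCR2-/- and 9.01 CPM in WT cells at 72 h, was the only 1 called. It was called there and over time in CCR2-/- cells (4.52 CPM at 24 h), where 24.4% and 35.6% of all genes were called. Of 7 granule serine proteases only Prtn3 could be compared, at 37.8 CPM in WT and 8.19 CPM in CCR2-/- mono/Mφ cells at 24 h and at 47.6 and 12.7 CPM at 72 h.

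Mono/Mφ cells were further split by the markers of 6 subsets named in the study. A cell joined a subset when its score stood 0.25 SD or more above the next, so a subset is a range of scores, and 362 of 2455 cells lay within 0.1 of that line. The members divided along this axis. In WT at 24 h the Ly6c monocyte subset (Ly6c2, Plac8, Hp and Chil3; 369 cells) carried 1541 CPM of Ctsb, 1178 of Ctsd, 678 of Ctsl and 935 of Lgmn. In the Fabp5 subset (Fabp5, Lgals1, Ccl7 and Flt1; 303 cells) the same genes stood at 5330, 3766, 1284 and 2780 CPM. The log2 ratios of Fabp5 to Ly6c cells were 1.79 for Ctsb, 1.68 for Ctsd, 1.57 for Lgmn and 0.92 for Ctsl. Ctsc gave the opposite sign, at 2110 CPM in Ly6c monocytes and 1343 CPM in Fabp5 cells (-0.65), and Ctss (-0.31), Ctsh (-0.35), Ctsz (0.20) and Ctsa (0.38) differed by less than 1.5-fold. In CCR2-/- mice the signs of these 9 ratios were the same, from 33 and 65 cells. The gate placed 65 of 201 CCR2-/- and 303 of 1248 WT mono/Mφ cells in the Fabp5 subset at 24 h. The paper reports that Ly6c monocytes and the Arg1 and Fabp5 cells were almost lost in acutely inflamed CCR2-/- mice. It describes Cd206 and Timp2 cells as absent there during resolution. Names given by this gate therefore need not mean the clusters of the paper. The paper's Ccr2 intermediate and Fn1 clusters had no gate here, and where such cells fell was not tested.

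At 72 h in WT the Cd206 subset (Mrc1, Selenop, Igf1, Trem2 and Stab1; 253 cells) took the place of the highest protease level. It held 5418 CPM of Ctsb, 3395 of Ctsd, 2780 of Lgmn and 3579 of Ctss, and 20806 CPM of all members together. Against the 46 Ly6c monocytes left at that time the log2 ratios were 2.30 for Ctsb, 2.48 for Ctsd, 1.89 for Lgmn and 1.22 for Ctsl, and within 0.23 of equality for the other 5. The Timp2 subset (Timp2, Ltc4s and Adgre5; 180 cells) lay between them, with 3644 CPM of Ctsb and 2997 of Ctsd.

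The Cx3cr1 subset (Cx3cr1, Cd81 and Cd72), the one with 20 or more cells in all 4 libraries, had another profile. In WT cells at 24 h it joined high Ctss (3351 CPM), Lgmn (2502 CPM) and Ctsh (1197 CPM) to low Ctsd (809 CPM) and the lowest Ctsl of any WT subset at that time (344 CPM). At 72 h this subset of WT mice kept Ctsd at 837 and Ctsl at 306 CPM. In the 50 cells of CCR2-/- mice at 72 h Ctss stood at 2022 CPM against 3135 CPM in 225 WT cells, Ctsh at 662 against 1126 CPM, Ctsd at 1388 against 837 CPM and Lgmn at 2628 against 1655 CPM. Of these CCR2-/- cells 30 were dividing, against 20 of the WT cells. Without the dividing cells the log2 ratios were -0.01 for Ctss, -0.01 for Ctsh, -0.31 for Ctsd and 0.33 for Lgmn. With a subset gap of 0.5 SD that of Ctsd was 0.24. Ctsc was the member for which the ratio was larger without them, 0.73 against 0.48.

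**Figure D3:**
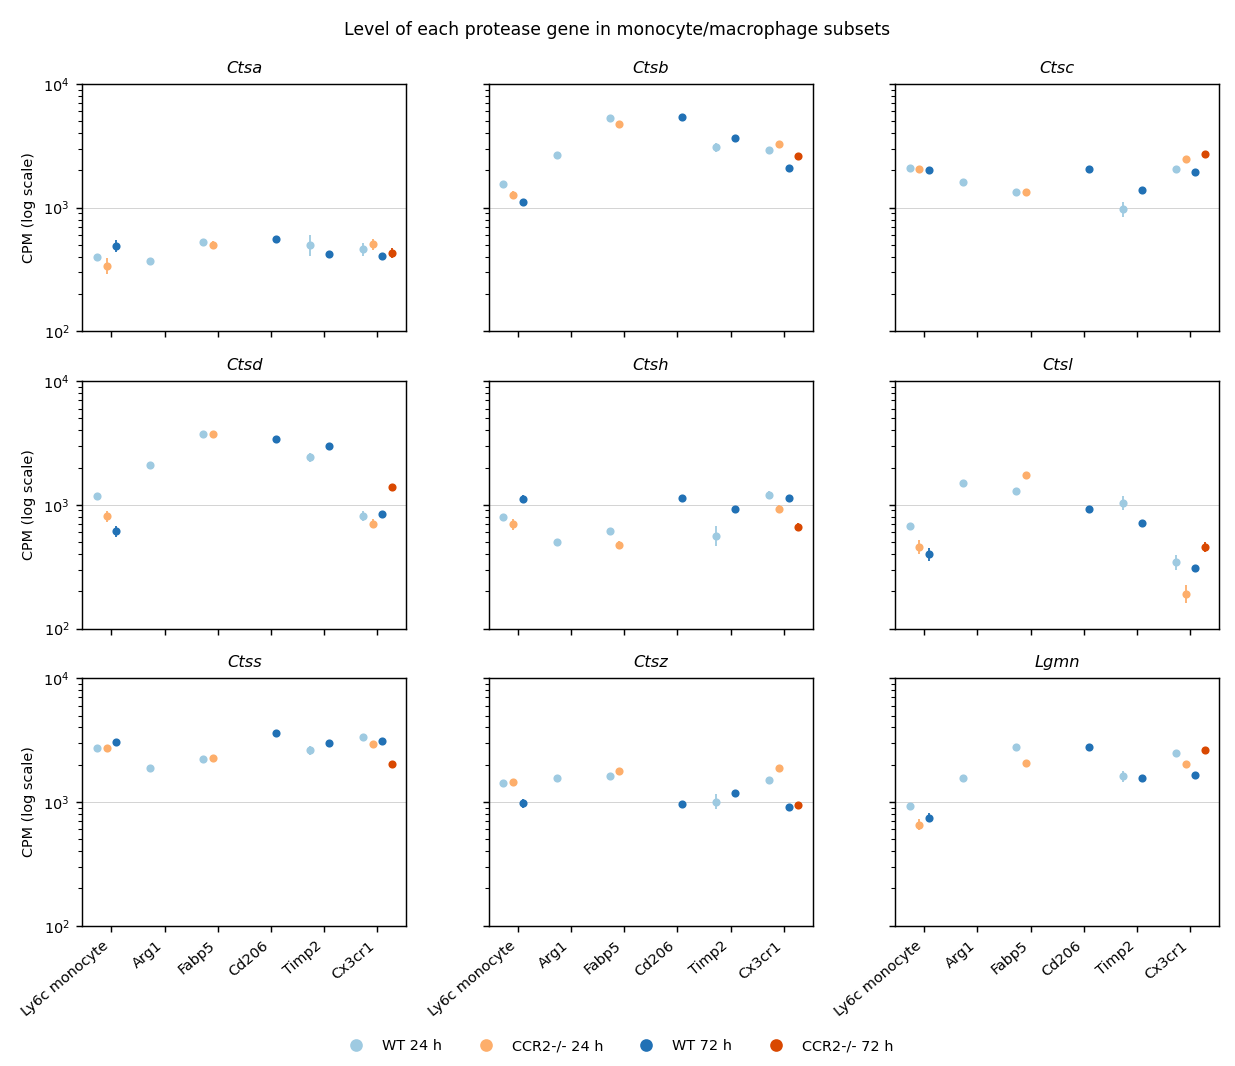
Level of each gene (CPM, log axis) in 6 mono/Mφ subsets, 1 point per library with its exact 95% counting interval; subsets with under 20 cells in a library are left out. Ctsb, Ctsd, Ctsl and Lgmn differ most between subsets, Ctsl is lowest in Cx3cr1 cells of WT mice, and Ctsa stays between 336 and 560 CPM.

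Single WT mono/Mφ cells showed part of this grouping. With 5000 UMIs drawn from each of 1162 cells at 24 h and 794 at 72 h, Pearson's r was 0.66 and 0.69 between Ctsb and Ctsd, 0.66 and 0.62 between Ctsb and Lgmn, and 0.50 and 0.40 between Ctsd and Lgmn. Ctsl gave lower values, 0.32 and 0.47 with Ctsb, 0.37 and 0.51 with Ctsd, and 0.24 and 0.36 with Lgmn. Ctss and Ctsh gave 0.36 and 0.26, and were not set apart at 72 h. Ctss with Lgmn gave 0.16 and 0.30, and Ctsc with Lgmn -0.08 and 0.27. Ctsb with Ctss gave -0.01 and 0.23, and Ctsc with Ctsd -0.24 and -0.10. These are descriptions of cells that share a library and its handling, not of independent samples.

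Neutrophil-like cells carried a narrower set. Ctsd led in every library, at 2513 CPM in WT and 3408 CPM in CCR2-/- cells at 24 h and at 1539 and 1492 CPM at 72 h. Ctsb came second, at 1217, 1459, 411 and 579 CPM in the same order, followed by Ctsz, at 538, 730, 358 and 318 CPM. The levels of Ctsa, Ctsc, Ctsh, Ctsl and Lgmn were below 200 CPM in each library. With 83.8% and 85.1% of thinned cells at 24 h and 56.2% and 62.5% at 72 h, Ctsd was far above its 21.1% to 21.7% in T-like cells.

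Over time Ctsb and Ctsd fell in the neutrophil-like cells of both genotypes. The log2 ratio of Ctsb was -1.57 (-1.80 to -1.34) in WT and -1.33 (-1.42 to -1.25) in CCR2-/- cells, and that of Ctsd -0.71 (-0.83 to -0.58) and -1.19 (-1.25 to -1.14). In CCR2-/- cells Ctsz (-1.20) and Ctss (-1.01) fell as well, and in WT Ctsz was called at -0.59. That made 6 of 9 members lower in WT, with 50.6% of genes called, 40.2% higher and 10.5% lower, and 4 of 9 lower in CCR2-/- cells, with 47.9% called, 39.1% higher and 8.86% lower. The median of all genes was itself 0.42 in WT and 0.38 in CCR2-/- cells, and relative to it the members' ratios are lower still, Ctsb reaching -1.99 and -1.72. The remaining calls in WT were Ctsc at -1.05, Ctsh at -1.34 and Lgmn at -1.48. In the WT 24 h neutrophil class the 18 mono/Mφ markers summed to 4353 CPM and Ccr2 stood at 143 CPM, against 3344 and 2.15 CPM in CCR2-/- cells. Ccr2 is the gene disrupted in these mice and was lower in their mono/Mφ cells too. Its level therefore cannot be compared between genotypes as a sign of mono/Mφ transcripts. Without the cells that scored for 2 classes, Ctsb and Ctsd were the only members lower in WT, Ctsa and Ctsl were called higher, and Lgmn at 24 h was 50.1 CPM in place of 113 CPM.

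Between genotypes at 24 h Ctsc (195 CPM in WT, 123 CPM in CCR2-/-) and Ctsh (136 and 75.3 CPM) were called lower in CCR2-/- neutrophil-like cells, 2 of 9, where 25.6% of genes were called, 13.4% higher and 12.2% lower. Both calls were gone without the cells that scored for 2 classes, with log2 ratios of 0.23 and 0.03, and Ctss, Ctsz and Lgmn were then called higher. With all cells Ctsd was at 0.44 (0.37 to 0.51) and Ctsz at 0.44, under 1.5-fold. At 72 h 1 of 9 was called, where 18.5% of genes were (10.5% higher, 7.98% lower), namely Ctsc at 94.2 CPM in WT and 158 CPM in CCR2-/- cells (0.75, 0.29 to 1.23), from 44 and 348 UMIs. Its share of neutrophil-like cells after thinning, 6.74% and 10.2% here, did not exceed the range in T-like cells, so it was not set apart from background.

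Neutrophil-like cells with a Siglecf UMI, a mark carried by some long-lived tissue neutrophils and by eosinophils, were 78 of 185 in WT and 276 of 563 in CCR2-/- mice at 72 h. They held less Ctsd than the cells without one, 960 against 1954 CPM in WT and 1098 against 1828 CPM in CCR2-/- mice. Ctsa went the other way, at 236 against 132 CPM in WT and 239 against 103 CPM in CCR2-/- mice. The median depth of both kinds of cell was close in WT, at 2513.5 and 2410 UMIs.

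The listed cystatin and serpin inhibitors were also compared in neutrophil-like cells. Over time in CCR2-/- cells 5 of 7 rose and 1 fell, where 39.1% of genes were higher and 8.86% lower, with a median log2 ratio of 3.21 against 0.38 over all genes. The rising ones were stefins, small cytosolic cystatins, with BC100530 going from 2.63 to 107.7 CPM, Stfa2 from 2.15 to 73.1 CPM and Stfa2l1 from 359 to 995 CPM, while Cstb fell from 1913 to 878 CPM. Stefin genes are near-identical copies, so reads may be split among them. In WT 3 of 6 rose, among them Cst3, from 1182 to 2772 CPM, and 1 fell, where 40.2% of genes were higher and 10.5% lower, and the medians were 0.56 and 0.42. Between genotypes 1 was higher and 4 lower of 6 at 24 h, against 13.4% and 12.2% of genes, and 4 of 7 were higher at 72 h, against 10.5% of genes, with BC100530 at 107.7 against 45.0 CPM. Of the serine proteases that cathepsin C activates, Prtn3, proteinase 3, was the only one that could be compared, at 20.2 and 15.1 CPM at 24 h and 32.1 and 37.7 CPM at 72 h in WT and CCR2-/- cells, from 15 to 83 UMIs. Of the antigen processing partners 3 of 4 were lower in CCR2-/- cells at 24 h, H2-DMb1 at 2.15 against 53.6 CPM, where 12.2% of genes were lower, and at 72 h 0 of 2 were called. The WT 24 h class was also the one with more mono/Mφ marker counts, 4353 against 3344 CPM, and their part in the difference was not tested. Ccr2, at 143 against 2.15 CPM, is the gene disrupted in the CCR2-/- mice, so its levels cannot be compared in this way.

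**Figure D4:**
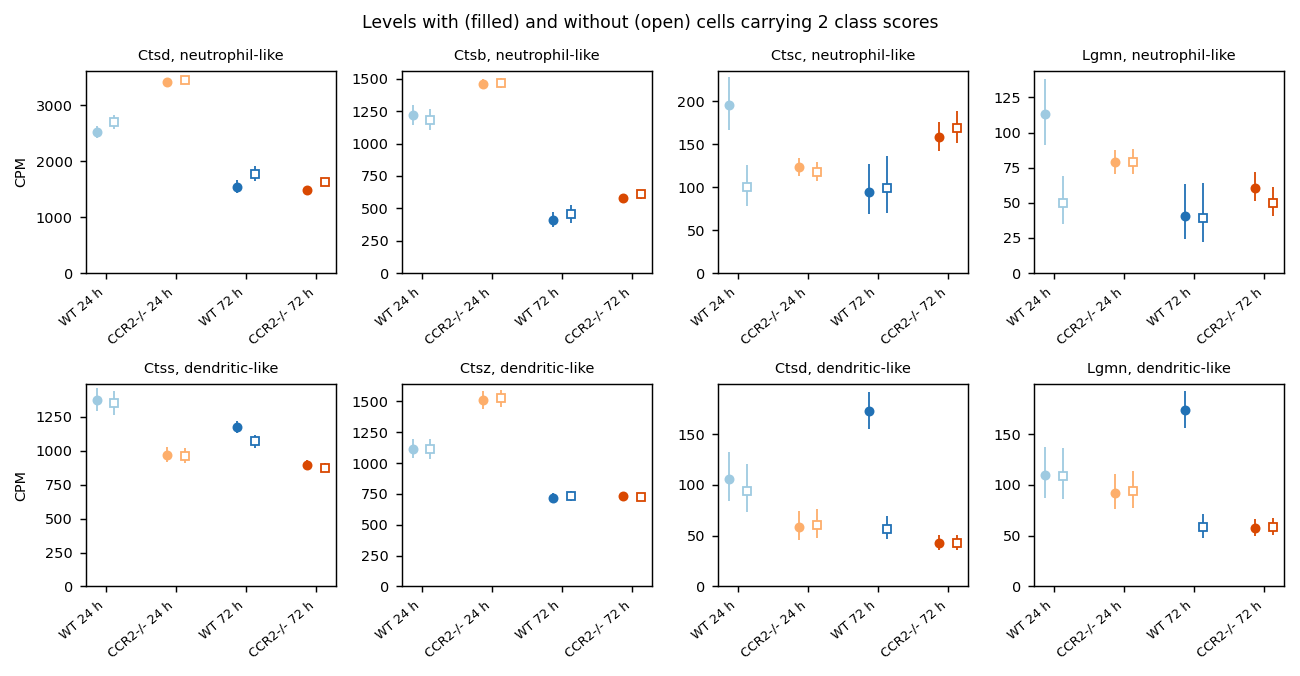
Levels (CPM) of 4 genes in neutrophil-like (top) and dendritic-like cells (bottom) of the 4 libraries with all cells of the class (filled circles) and without cells that scored for 2 classes (open squares), with exact 95% counting intervals. Ctsd and Ctsb in neutrophils and Ctss and Ctsz in dendritic-like cells barely move, while Lgmn and Ctsc of WT 24 h neutrophils and Ctsd and Lgmn of WT 72 h dendritic-like cells drop.

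In dendritic-like cells Ctss, Ctsz and Ctsh were the 3 leading members in every library. Ctss stood at 1375 CPM in WT and 972 CPM in CCR2-/- cells at 24 h and at 1176 and 896 CPM at 72 h, and Ctsh at 902, 630, 715 and 529 CPM. Ctsz, at 1115, 1510, 716 and 733 CPM, was among the leading 2 in every library. Ctsd, Lgmn and Ctsl lay at or under 173 CPM. The 24 h values rest on 45 and 54 cells.

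Ctsz fell over time in dendritic-like cells of both genotypes, with log2 ratios of -0.64 (-0.76 to -0.51) in WT and -1.04 (-1.13 to -0.95) in CCR2-/- cells, as it did in mono/Mφ cells. Including it, 3 of 9 members were called in WT, where 22.1% of genes were (12.4% higher, 9.71% lower), and 4 of 9 in CCR2-/- cells, where 21.5% were (10.3% higher, 11.2% lower). The other calls in WT were higher Ctsd (0.70) and Lgmn (0.65), and in CCR2-/- cells lower Ctsb (-0.85), Ctsl (-1.46) and Lgmn (-0.68). The CCR2-/- calls depended on the setting. With classes from Leiden clusters Ctsb was at 0.26, Ctsl at -0.062 and Lgmn at 1.85, and Lgmn was at 0.020 by the mean CPM over cells and at 0.24 after thinning. Between genotypes Ctsl was higher at 24 h in CCR2-/- cells, at 83.3 against 36.7 CPM from 102 and 27 UMIs (1.18, 0.56 to 1.85), and Ctsd lower (-0.85), 2 of 9 with 21.0% of genes called, 11.4% higher and 9.53% lower. At 72 h Ctsd and Lgmn were called, 2 of 9 with 11.8% of genes called, 5.04% higher and 6.72% lower. Ctsd stood at 173 CPM in WT and 42.7 CPM in CCR2-/- cells (-2.02) and Lgmn at 173 and 57.4 CPM (-1.60).

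A small number of cells carried the last differences. In the WT 72 h dendritic-like class 1 cell held 93 of 361 Ctsd UMIs, 25.8%, and the 18 mono/Mφ markers summed to 3372 CPM, against 636 CPM in CCR2-/- cells. Without cells that scored for 2 classes, 98 of 109 in WT and 103 of 108 in CCR2-/- mice, Ctsd was at 56.9 and 43.1 CPM and Lgmn at 58.6 and 58.4 CPM, and neither was called. Ctsd and Lgmn in WT then were lower at 72 h than at 24 h, with log2 ratios of -0.73 and -0.89. Ctss (1072 and 876 CPM at 72 h) and Ctsz (733 and 726 CPM) differed by under 1.5-fold. Antigen processing partners were steady in the dendritic-like class, with 0 of 6 called at 72 h between genotypes and over time in CCR2-/- cells. The shares of all genes called were 11.8% and 21.5%. Cd74 stood between 20471 and 22582 CPM in the 4 libraries, and H2-DMb2 was the 1 partner called elsewhere, at 336 CPM in WT at 24 h, 572 CPM in CCR2-/- at 24 h and 511 CPM in WT at 72 h.

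Lymphoid cells added few transcripts. In the 2 libraries with 20 or more NK-like cells (26 and 34) these carried Ctsd at 614 and 619 CPM, above its 235 to 319 CPM in T-like cells. The 35 B-like cells of the CCR2-/- 24 h library held Ctsh at 389, Ctss at 379 and Ctsz at 292 CPM, the same 3 genes that led in dendritic-like cells, and Ctsd at 41.7 CPM. Ctsl was at 3.48 to 43.2 CPM in all lymphoid pools, from 8 UMIs or fewer in each.

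Over the 19 pools of class and library with 20 or more cells, Ctsb and Ctsl (r = 0.95 on log2 CPM) and Ctsh and Ctss (0.93) were the most alike of the 36 member pairs, and Ctsd with Ctsh (-0.10) the least. Among 8085 genes the nearest to Ctss was Cybb (0.96), a subunit of the phagocyte oxidase, and the nearest to Ctsl was Lamp1 (0.95), a lysosomal membrane protein. Ctsc was nearest to Mertk (0.96), a receptor for dying cells, Lgmn to Siglec1 (0.93), Ctsa to Lpl (0.95), Ctsb to Ctsl (0.95) and Ctsh to Gm6377 (0.97). Ctsd was nearest to Rap1b (0.91) and Ctsz to Capza2 (0.93). Pools of 1 class repeat across libraries, so these values mostly describe how classes differ, and with Spearman's rho only 6 of the 27 leading genes were the same.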

How the data were processed

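The authors deposited raw UMI counts per gene and cell for each of the 4 libraries (10x 3' kit), made per the labels and the submitters' processing notes with Cell Ranger 3.0.2 and Seurat on GRCm38, after cells with under 200 genes or over 10% mitochondrial UMIs had been removed. Here counts were summed over the cells of a class and library and divided by all UMIs of that pool (CPM). Cells were classed by the mean scaled log level of class markers (score of 0.15 or more, 0.05 above the next class, at least 3 markers), thresholds set with the data in view, and 505 of 5607 classed cells lay under 0.1 above the latter line. Leiden clusters (scanpy 1.11.5, leidenalg 0.10.2) were an alternative that placed 98.0% of these mono/Mφ, 99.7% of neutrophil-like and 98.4% of dendritic-like cells in the same class. The Leiden dendritic class was larger, 421 cells against 316, and 73.9% of it were dendritic-like by the scores. Scrublet marked 7, 1, 1 and 1 cells of the libraries, too few to serve as a doublet filter, so cells scoring 0.15 or more for 2 classes were removed in another alternative, chosen after seeing the data, as were those without dividing cells or the richest cell and with a wider subset gap. Levels have exact Poisson, ratios exact binomial intervals (95%), and 0 UMIs were set to 3. Shares of cells were taken after thinning to 1000 UMIs, leaving out shallower cells, 0 to 25 per class and library. Every member is named, for each list the 2 to 4 genes of largest fold past 1.5-fold (a few others of a list were named after their values were seen), and the gene nearest to each member of the 3 found. The members and lists were chosen with earlier results of these data known. Mcpt4 and Ifi30 were not analysed here. One result of the hydrolase list is not reported here. The ratios and intervals were tested on simulated counts. Python 3.11.15, numpy 2.4.6, scipy 1.17.1 and pandas 2.3.3 were used.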

Additional observations from a re-analysis of the deposited data

Results flagged for a closer look

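In several genes the log2 ratio pointed one way in one group and the opposite way in the other, with both counting intervals off 0. The difference between such ratios was not tested, since each group is 1 library. In mono/Mφ cells the CCR2-/- to WT ratio at 24 and 72 h was 0.14 and -0.23 for Ctsb, 0.084 and -0.35 for Ctsd, and -0.094 and 0.41 for Lgmn. The ratio of 72 h to 24 h in WT and CCR2-/- mono/Mφ cells was 0.091 and -0.27 for Ctsb, 0.65 and -0.15 for Ctsh, and 0.41 and -0.35 for Ctss. In neutrophil-like cells Ctsc gave -0.67 and 0.75 between genotypes at 24 and 72 h, and -1.05 and 0.36 over time in WT and CCR2-/- mice. In dendritic-like cells the genotype ratio at 24 and 72 h was 0.26 and -0.52 for Ctsb and 1.18 and -0.53 for Ctsl. The time ratio in WT and CCR2-/- dendritic-like cells was 0.70 and -0.46 for Ctsd and 0.65 and -0.68 for Lgmn. Several of these opposite signs were lost under other settings. Without cells that scored for 2 classes the time ratio in WT dendritic-like cells was -0.73 for Ctsd and -0.89 for Lgmn, the sign seen in CCR2-/- cells. In CCR2-/- cells Lgmn was at 1.85 with Leiden classes, 0.020 by mean CPM and 0.24 after thinning. With Leiden classes the time ratio of Ctsd in dendritic-like cells was 1.92 in CCR2-/- and 1.43 in WT mice. The genotype ratio at 72 h was then 0.095 for Ctsb and 0.97 for Ctsl, the sign seen at 24 h. Ctsc between genotypes at 24 h in neutrophil-like cells was 0.31 with Leiden classes, 0.55 after thinning and 0.23 without cells that scored for 2 classes.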

How the results depend on the processing

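No paired analysis was possible because each group is 1 library and the result comes from no test. Of 31 called member ratios, each run under 12 alternatives, 357 of 372 values kept their direction and 313 stayed past 1.5-fold. In mono/Mφ cells the 72 h genotype ratio ran from -1.60 to -0.77 for Ctsh and from -0.89 to -0.48 for Ctss. The causes of the changes below were not tested.

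With Leiden classes neutrophil-like genotype calls were 2 higher and 0 lower at 24 h (Ctsc 0.31, Ctsh 0.027) and 2 higher at 72 h, WT time calls 1 higher and 2 lower, dendritic-like calls 1 higher and 1 lower at 72 h (Lgmn 0.071), and in CCR2-/- over time 2 higher and 1 lower (Ctsb 0.26, Lgmn 1.85). With the stricter gate neutrophil-like calls at 24 h were 1 higher and 0 lower and over WT time 1 higher, and dendritic-like WT time calls 0 higher and 2 lower (Lgmn -0.48). With the mean CPM over cells Lgmn was called higher in mono/Mφ cells (1 at 72 h, 1 over CCR2-/- time beside 1 lower), neutrophil-like calls were 1 higher and 0 lower at 24 h, 2 higher at 72 h and 3 lower over WT time, and dendritic-like calls 0 lower at 24 h and 1 higher over WT time (Lgmn over CCR2-/- time 0.020). Totals without ribosomal and mitochondrial genes gave 1 higher in mono/Mφ cells over CCR2-/- time and 2 higher in neutrophil-like cells at 72 h. The median of ratios gave 1 lower in mono/Mφ cells over WT time and 2 higher in neutrophil-like cells at 72 h. With at most 5% mitochondrial UMIs 4 were lower in mono/Mφ cells over CCR2-/- time and 0 higher in dendritic-like cells over WT time (Ctsd -0.14). Neutrophil-like calls at 24 h were 0 lower without Scrublet's cells and 0 lower without the 1% richest cells, where 1 was higher in mono/Mφ cells over CCR2-/- time and 1 in dendritic-like cells over WT time. Thinned cells gave 1 higher in mono/Mφ cells at 72 h and 1 over CCR2-/- time, neutrophil-like calls of 1 higher and 0 lower at 24 h (Ctsc 0.55) and 2 higher and 2 lower at 72 h, and 2 higher in dendritic-like cells at 24 h (Lgmn over time -0.38 in WT, 0.24 in CCR2-/-).

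At 2-fold mono/Mφ calls were 1 lower at 72 h, 0 higher and 0 lower over WT time and 0 lower over CCR2-/- time, neutrophil-like calls 0 lower at 24 h and 0 higher at 72 h, and dendritic-like calls 0 lower at 24 h, 0 higher and 0 lower over WT time and 2 lower over CCR2-/- time. Without cells scoring for 2 classes mono/Mφ calls were 1 lower over WT time, neutrophil-like calls 3 higher and 0 lower at 24 h (Ctsc 0.23, Ctsh 0.027), 1 lower at 72 h and 2 higher and 2 lower over WT time, and dendritic-like calls 0 lower at 72 h and 0 higher and 5 lower over WT time (Ctsd -0.73, Lgmn -0.89). Without dividing cells 1 was lower in mono/Mφ cells at 72 h and 2 in dendritic-like cells over WT time, and in the Cx3cr1 subset the 72 h genotype ratio was -0.31 for Ctsd and -0.015 for Ctsl and the CCR2-/- time ratio of Ctsd -0.067. Without the richest cell of CCR2-/- 72 h 1 was lower in neutrophil-like and 4 in dendritic-like cells at 72 h. Without thinning 4 and 5 members, in place of 8 and 8, had their highest share in mono/Mφ cells of CCR2-/- mice at 24 and 72 h, and with Spearman's rho 6 of 27 nearest genes were the same. The depth limits Lgmn, Ctsh and Ctsc in neutrophil-like cells and Ctsd, Ctsl and Lgmn in dendritic-like cells, with as few as 19 to 27 UMIs in a pool.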
